A study of Caenorhabditis elegans with 2 samples.

Results

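The snoRNA and snRNA genes of Caenorhabditis elegans were examined for HAM-2 occupancy in embryos. All genes that the WBcel235 annotation gives the biotype snoRNA (346 genes) or snRNA (129 genes) on the nuclear chromosomes were taken, 475 of 46890 annotated nuclear genes. For each gene the strongest peak summit within 250 bp of the gene body was looked up in each of the 4 deposited peak lists. Occupancy was measured by ChIP-seq, the sequencing of immunoprecipitated chromatin, on whole worm embryos of strain OP639, which carries the integrated transgene wgIs639, in which ham-2 is fused to TY1, EGFP and 3xFLAG beside an unc-119(+) rescue, in the unc-119 (tm4063) background. HAM-2, a zinc finger transcription factor known for its role in migration of the HSN motor neurons, was pulled down through its GFP tag with an anti-GFP antibody, per the sample descriptions, whereas the antibody field of the labels names ham-2. The embryos were of mixed stage and mixed sex, of age 3 hours and collected by egg bleaching, and the chromatin was sheared to 200 to 800 bp. There is 1 group, with 2 libraries numbered as biological replicates 6 and 7, and both carry the transgene and the unc-119 mutation. The tagged HAM-2 is made from a transgene, untagged worms were not analysed here, and chromatin of all embryonic cells was pooled, so that sites used in few cells could be missed.

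Small nucleolar RNAs (snoRNAs) guide chemical modification of ribosomal and spliceosomal RNA, box C/D snoRNAs methylation and box H/ACA snoRNAs pseudouridylation. Many are cut out of the introns of protein-coding host genes, and others are transcribed from promoters of their own. The small nuclear RNAs U1, U2, U4, U5 and U6 build the spliceosome, which removes introns, and in nematodes SL1 and SL2 RNAs donate the leader that is trans-spliced onto messenger RNAs, while SmY RNAs are associated with trans-splicing. RNA polymerase II transcribes most snRNA genes from an upstream element, and RNA polymerase III transcribes U6 and tRNA genes. A tRNA gene has its promoter inside it, in the form of an A box and a B box to which the factor TFIIIC binds. In budding yeast a snoRNA gene is known that carries such boxes upstream of the mature RNA.

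At 33 of the 67 occupied snoRNA genes the HAM-2 summit lay within a pair of words resembling those boxes. The words TGGCNNAGT (A word) and GTTCGANNC (B word) were searched on the strand of each gene, from 150 bases before to 20 after its annotated 5′ end, with up to 2 and 1 mismatches and a gap of 20 to 60 bases between them. The sequences printed here, from the RefSeq genome for WBcel235 (ce11), run from 80 bases before the 5′ end to 10 after its start on the strand of the gene. Capitals mark the A word and then the B word. All snoRNA genes printed here were chosen because they carry both words. Strongly occupied genes without the pair, such as ZK265.10 and ZK994.7, are described below and not printed. The first 5 belong to strongly occupied snoRNA genes: W03C9.9 (chrII:11960818-11960907, plus strand), Y43F8C.22 (chrV:19643178-19643267, minus), T03F7.8 (chrV:11314178-11314267, plus), F55A11.10 (chrV:11782912-11783001, plus) and F32E10.10 (chrIV:7574042-7574131, plus). M106.6 (chrII:10840237-10840326, plus) and K11C4.6 (chrV:6888996-6889085, plus) show the same words inside introns of long genes.
W03C9.9: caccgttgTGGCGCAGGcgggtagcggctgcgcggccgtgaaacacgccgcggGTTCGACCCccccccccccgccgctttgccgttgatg
Y43F8C.22: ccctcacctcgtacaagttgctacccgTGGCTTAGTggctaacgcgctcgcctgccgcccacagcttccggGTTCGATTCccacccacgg
T03F7.8: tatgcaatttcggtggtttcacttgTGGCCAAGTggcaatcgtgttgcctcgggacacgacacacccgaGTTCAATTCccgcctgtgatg
F55A11.10: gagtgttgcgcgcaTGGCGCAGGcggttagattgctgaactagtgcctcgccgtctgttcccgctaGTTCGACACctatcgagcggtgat
F32E10.10: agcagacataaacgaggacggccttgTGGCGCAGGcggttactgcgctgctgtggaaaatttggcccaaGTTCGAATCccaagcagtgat
M106.6: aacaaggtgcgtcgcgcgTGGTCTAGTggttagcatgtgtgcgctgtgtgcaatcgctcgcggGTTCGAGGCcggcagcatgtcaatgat
K11C4.6: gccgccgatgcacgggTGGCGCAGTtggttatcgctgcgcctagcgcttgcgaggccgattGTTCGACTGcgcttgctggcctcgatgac
Y59E1B.14 (chrX:1891429-1891518, plus) and R166.7 (chrII:10545320-10545409, minus) are shown because they carry both words and had no reproducible summit.
Y59E1B.14: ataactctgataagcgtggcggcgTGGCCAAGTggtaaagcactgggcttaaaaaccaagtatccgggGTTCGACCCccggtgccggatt
R166.7: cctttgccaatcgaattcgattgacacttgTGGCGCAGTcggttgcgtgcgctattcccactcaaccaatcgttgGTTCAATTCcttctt

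Another word, TGTCNG, was searched on the strand of the gene from 80 to 30 bases before the 5′ end and found at 78 of the 129 snRNA genes. It is in capitals in the sequences of 4 occupied snRNA genes, printed over the same span from the same RefSeq build. They are R07E5.16 with identifier WBGene00014543, a U6 gene (chrIII:10989599-10989688, plus strand), the SL2 gene sls-2.1 (chrII:5844785-5844874, plus), the U4 gene T11F9.15 with identifier WBGene00014291 (chrV:11980038-11980127, plus) and the U1 gene sup-6 (chrII:12944958-12945047, minus).
R07E5.16: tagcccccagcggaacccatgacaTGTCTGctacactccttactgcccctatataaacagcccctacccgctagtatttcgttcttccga
sls-2.1: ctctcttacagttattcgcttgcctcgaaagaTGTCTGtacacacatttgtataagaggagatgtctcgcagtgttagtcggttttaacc
T11F9.15: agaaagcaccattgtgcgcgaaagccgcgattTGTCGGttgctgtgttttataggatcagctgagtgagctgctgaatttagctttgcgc
sup-6: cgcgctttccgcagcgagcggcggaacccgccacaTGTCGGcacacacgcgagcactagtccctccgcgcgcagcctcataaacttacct
No A-B pair was found for these 4 genes, and none of the 9 snoRNA sequences printed before them holds TGTCNG in the searched span.

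A reproducible summit lay within 250 bp of 67 of the 346 snoRNA genes (19.4%, exact 95% interval 15.3 to 23.9) and of 14 of the 129 snRNA genes (10.9%, 6.06 to 17.5). The reproducible set holds the 1945 peaks past the authors' threshold on the irreproducible discovery rate, and its signal values are those of the pooled list. Among all other nuclear genes the share by the same rule was 4.26%. It was 5.14% for protein-coding genes, 9.17% for genes of biotype ncRNA and 29.2% for the 612 tRNA genes. Thus the snoRNA interval lay above the value for protein-coding genes and below that for tRNA genes. Intervals cover counting error only, genes are not independent replicates, and no test was made. The window includes the gene body, so it is wider for longer genes, and the shares were not adjusted for gene length.

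With any peak of the pooled list, which holds 30000 peaks with background included, the picture was different. A pooled summit lay near 160 snoRNA genes (46.2%) and 42 snRNA genes (32.6%), beside 32.5% of all other nuclear genes. In the full list the snRNA share was thus close to that of other genes, and the snoRNA share was above it. The classes differ in gene length and so in the span searched, so closeness to other genes does not show a background level. Of the 100 strongest reproducible summits, 15 lay near snoRNA genes, 1 near a snRNA gene and 8 near tRNA genes. Over all 1945 reproducible peaks, 66 distinct summits were counted for snoRNA genes and 13 for snRNA genes. For tRNA genes only the number of genes with a summit, 179, was counted.

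Signal at occupied snoRNA genes ran from 106.3 to 1026, with a median of 280.7 in the authors' units, beside a median of 152.4 over all reproducible peaks. Of the 67 genes, 52 lay above that median. Occupied snRNA genes ran from 109.1 to 761.3, with a median of 185.9, and 10 of 14 lay above it. At the threshold, the weakest snoRNA gene inside was H04D03.5, at 106.3. The strongest 3 outside were K09E9.5 at 104.4, F25H2.15 at 103.2 and Y55F3BR.9 at 102.4 in the pooled list, so genes on either side of the threshold differed little. For snRNA genes, the weakest inside was a U6 copy at 109.1, and the strongest outside were T14B4.10 at 97.6, another U6 copy at 94.9 and sls-2.14 at 79.4.

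Of the 346 snoRNA genes, 60 carried the A-B pair (17.3%), against 2.44% of 19973 protein-coding 5′ ends searched in the same window and 3.10% of snRNA genes. In tRNA genes the same pair was found in 607 of 612 (99.2%), searched from 20 bases before to 150 after the 5′ end. None of the 60 pairs overlapped an annotated tRNA gene, and no occupied snoRNA gene had its summit near one. A reproducible summit lay near 40 of the 60 genes with the pair (66.7%, 53.3 to 78.3) and near 27 of the 286 without it (9.44%, 6.31 to 13.4), beside 4.26% of all other genes. Read the other way, the pair was present in 59.7% of occupied snoRNA genes and in 7.17% of the others. The pair was defined after the values were seen. Allowing 1 mismatch in each word gave 29 of 36 genes (80.6%), whereas allowing 2 in each gave 51 of 146 (34.9%).

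**Figure D1:**
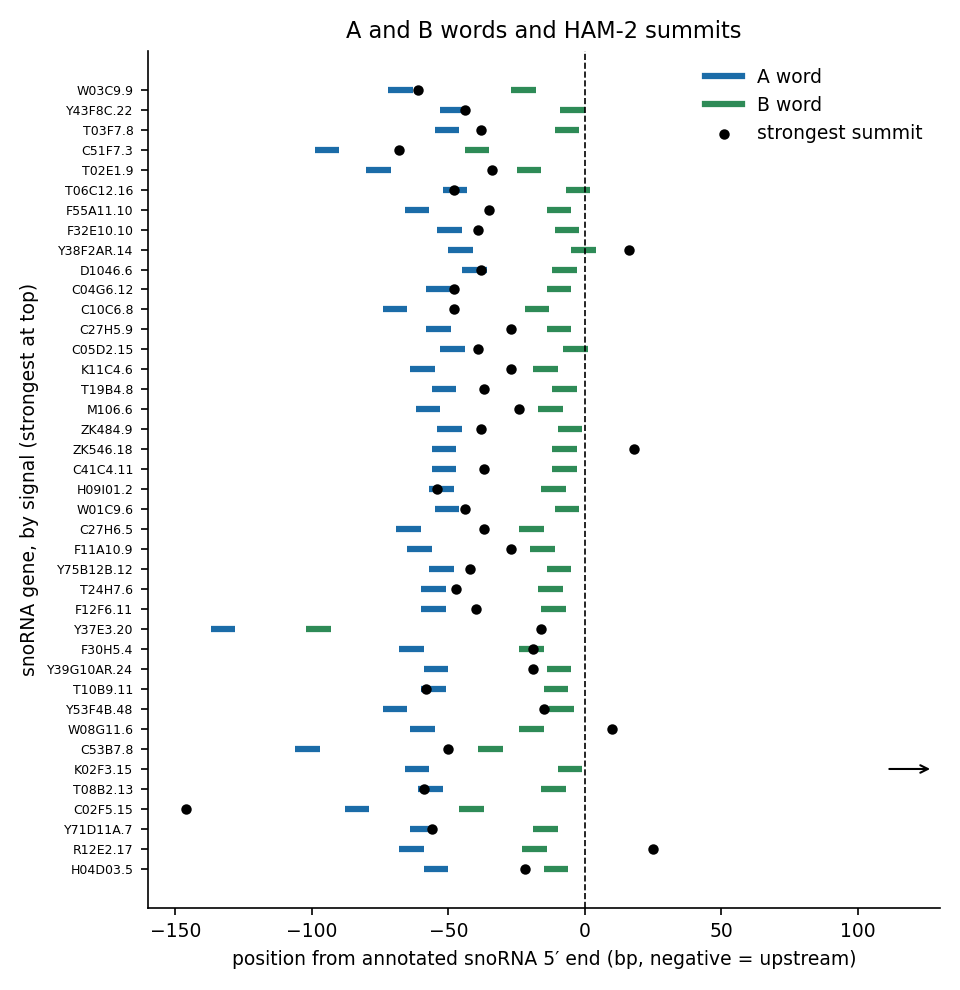
Positions of the A word (blue), the B word (green) and the strongest reproducible summit (black point) in bp from the annotated 5′ end, for the 40 occupied snoRNA genes with an A-B pair, strongest at the top. In 33 of 40 genes the point lies between the start of the A word and the end of the B word; the arrow stands for the summit of K02F3.15 at 409 bp.

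The pair had a narrow layout at the 40 occupied genes. The A word began at a median of −60 bases from the 5′ end (quartiles −68 and −56) and the B word at −15 (−22.25 and −12), and the gap between them had a median of 35.5 bases (35 to 36). The words, gap and window were chosen after values were seen, and the layout was not summarised for the 20 unoccupied genes with a pair. Of those, Y71F9AM.7 had its words at −58 and −14 and F25H5.9 at −56 and −12, whereas the A word of T23G5.7 was at −112. The layout was therefore not particular to occupied genes. The summit lay at a median of −5.5 bp from the middle of the pair (quartiles −14.4 and 13.3), and in 33 of 40 genes it was within 30 bp of that point. In 178 tRNA genes with a pair and a summit the corresponding median was −17.5 bp (−43.5 and 15.25). The 7 summits outside the pair belonged to Y38F2AR.14, ZK546.18, Y37E3.20, W08G11.6, R12E2.17, C02F5.15 and K02F3.15. In Y37E3.20 the pair itself lay far upstream, with its A word at −137. In K02F3.15 the summit was downstream of the whole gene, at 409 in the reproducible list, 410 in replicate 6 and 397 in replicate 7.

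Shares of occupied snoRNA genes were compared by position relative to protein-coding genes, with and without the pair. A snoRNA gene was classed as independent where it overlapped no protein-coding gene, and as intronic where it lay in an intron of a protein-coding gene on the same strand. By class, 29 of 124 independent genes (23.4%, 16.3 to 31.8) and 20 of 142 intronic genes (14.1%, 8.82 to 20.9) had a reproducible summit, and these intervals overlap. Genes antisense in an intron gave 9 of 27 (33.3%, 16.5 to 54.0), and genes overlapping a protein-coding exon 9 of 53 (17.0%, 8.07 to 29.8). Split by the pair, 13 of 17 independent genes with it (76.5%, 50.1 to 93.2) and 16 of 107 without it (15%, 8.80 to 23.1) were occupied. For intronic genes the counts were 18 of 30 with the pair (60%, 40.6 to 77.3) and 2 of 112 without it (1.79%, 0.217 to 6.30). Antisense genes gave 5 of 9 and 4 of 18, and exon-overlapping genes 4 of 4 and 5 of 49. Without the pair, the interval of intronic genes lay below that of independent genes at the main setting. It held the 5.14% of protein-coding genes and the 4.26% of all other genes. The 1.79% rested on 2 genes and became 5.36% and 3.57% with replicate 7 or replicate 6 alone. It became 5.6% with 1 mismatch allowed in each word, 6.25% with summits within 500 bp and 7.14% with the larger set of pooled peaks. Intervals were not computed at those settings. The pair was also defined after the values were seen, so whether the classes differ was not tested.

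**Figure D2:**
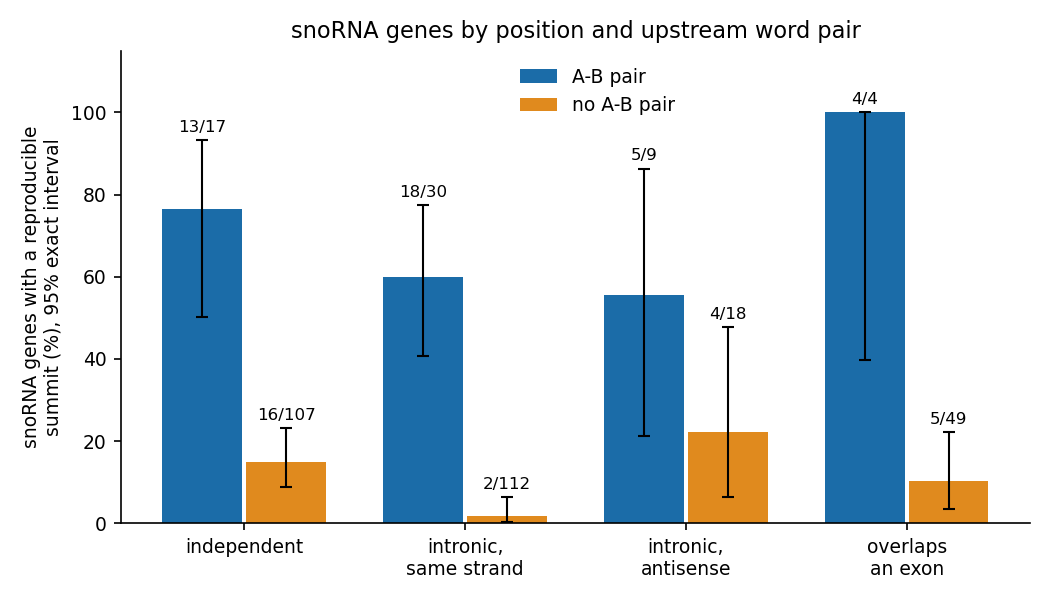
Percent of snoRNA genes with a reproducible HAM-2 summit within 250 bp, by position relative to protein-coding genes and by presence of the A-B pair (blue with, orange without). Bars start at 0, lines are exact 95% intervals and the counts are genes occupied of genes in the class; intronic genes reach 60% with the pair and 1.79% without it, a share that was 3.57 to 5.36% with single replicates.

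The strongest snoRNA gene, W03C9.9 (WBGene00045127, chrII:11960898-11960959), is an independent gene with box C/D sequence marks. Its signal was 606.9 in replicate 6, 416.9 in replicate 7 and 1026.1 in the reproducible list, where it ranked 2 of 1945. Its summit was at −63, −60 and −61 from the 5′ end in those lists, next to the A word. T06C12.16, an independent gene at 363.8, 256.8 and 626.4, had its reproducible summit on the A word. F32E10.10, the third independent gene with a pair among the leading 15, stood at 343.1, 228.3 and 567.0, with the reproducible summit between the words. Each of these genes was among the 50 strongest peaks of both replicate lists.

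Y43F8C.22 (WBGene00045120), called box H/ACA by its end sequence and lying in an intron of Y43F8C.7, matched both words without a mismatch. Its signal was 441.9 in replicate 6, 330.2 in replicate 7 and 762.3 in the reproducible list. C51F7.3, in an intron of the FERM domain gene frm-7, gave 397.0, 341.4 and 739.7. That summit lay at −68 from the start of C51F7.3, between its words, and inside the neighbouring C51F7.4, which has no pair of its own and overlaps an exon of frm-7. Both genes are therefore counted as occupied by 1 summit, and the 67 snoRNA genes share 66 summits. F55A11.10, in an intron of F55A11.6, gave 335.1, 260.7 and 591.6. Its summit also lay in the promoter window of F55A11.11, from 500 bp upstream to 100 bp downstream of that gene's 5′ end. The remaining intronic genes with a pair in the leading 15 were Y38F2AR.14, in Y38F2AR.12, at 481.7 and D1046.6 at 441.0, the second in cfim-2, which encodes a subunit of the messenger RNA cleavage factor.

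The pair was also found at 9 of the 27 antisense genes, 5 of them occupied. T03F7.8, opposite to the cuticlin-like gene cutl-18, gave 421.7 in replicate 6, 341.6 in replicate 7 and 755.4 in the reproducible list. C04G6.12, opposite to the MAP kinase gene mpk-2, gave 228.3, 189.9 and 429.0. Both summits lay inside the pair, at −38 and −48. B0334.12, opposite to the potassium channel gene twk-5, had no pair and gave 247.8, 183.5 and 429.8, and its summit was 118 bases after the 5′ end and so downstream of the gene of 70 bases.

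Strong occupancy without the pair was also seen. ZK265.10, an independent gene on chromosome I, gave 399.7 in replicate 6, 313.0 in replicate 7 and 705.5 in the reproducible list, with the summit at −61. ZK994.7, in an intron of the peroxidasin gene pxn-1, gave 343.2, 278.9 and 618.8 with the summit at −3. The other intronic gene without the pair was F38E11.14 in cng-3 at 348.7, whose summit also lay in the promoter window of wrt-3. T02E1.9 on chromosome I, which overlaps an exon of spe-12 and carries a pair, gave 338.3, 303.1 and 643.7, and its summit lay in the promoter window of T02E1.2. In all, 12 of the 67 summits, 6 with and 6 without a pair, lay from 500 bp upstream to 100 bp downstream of a protein-coding 5′ end. Binding to the snoRNA gene and to that promoter cannot be told apart there.

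Of the 20 snoRNA genes with a pair and no reproducible summit, 6 had a peak in the pooled list, at 51.4 to 96.8. The highest were Y71F9AM.7 in cogc-3 at 96.8 and F25H5.9 in the pyruvate kinase gene pyk-1 at 94.4, both just under the threshold. R166.7, in the kinase gene mnk-1, had 1 mismatch in all and stood at 59.0, with ranks 4904 in replicate 6 and 12388 in replicate 7. Y59E1B.14 on the X chromosome matched both words without a mismatch and had no peak summit within 250 bp in any of the 4 lists, although its flanks are unique in the genome. Not every gene with the words was occupied, and not every occupied gene carried them.

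The 142 intronic snoRNA genes lie in 123 host genes, and the 20 occupied ones in 20 different hosts. Their summits lay 703 to 16047 bp from the host's 5′ end, with a median of 2900.5 bp, so that all 20 were more than 500 bp away. M106.6, in the condensin gene mix-1, had the longest distance, with signals of 179.7, 156.7 and 333.5 and a summit at −24. K11C4.6, in the β-spectrin gene unc-70, lay 7711 bp from the host's 5′ end and gave 216.3, 165.5 and 374.6. D1046.6 lay 903 bp from the 5′ end of its host. The hosts with most snoRNA genes had none occupied. They were nol-56, which encodes a core protein of box C/D particles (4 genes), the ribosomal protein gene rpl-6 (3) and the topoisomerase gene top-2 (3), and none of these 10 genes carried the pair. Since only 1.79% of all intronic genes without the pair were occupied, this count does not set these hosts apart. Over all hosts named rpl or rps, 0 of 19 intronic snoRNA genes had a reproducible summit, which allows up to 17.6%. The share of all intronic snoRNA genes, 14.1%, lies within that bound.

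Summits at snoRNA genes lay mostly just upstream of the mature RNA. The median position was −39 bp from the annotated 5′ end (quartiles −58.5 and −21, range −223 to 409). Counted by gene, the summit was upstream at 58 of 67 genes, at 48 of them within 100 bp, and at or after the first base at 9. Genes with the pair had a median of −38 (−48 and −23.5), and genes without it were more spread, with a median of −57 (−128.5 and −19). Of the 10 genes with a summit more than 100 bp upstream, 9 were without the pair. Within 100 bp or 500 bp of the gene the median stayed between −41 and −37.5.

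**Figure D3:**
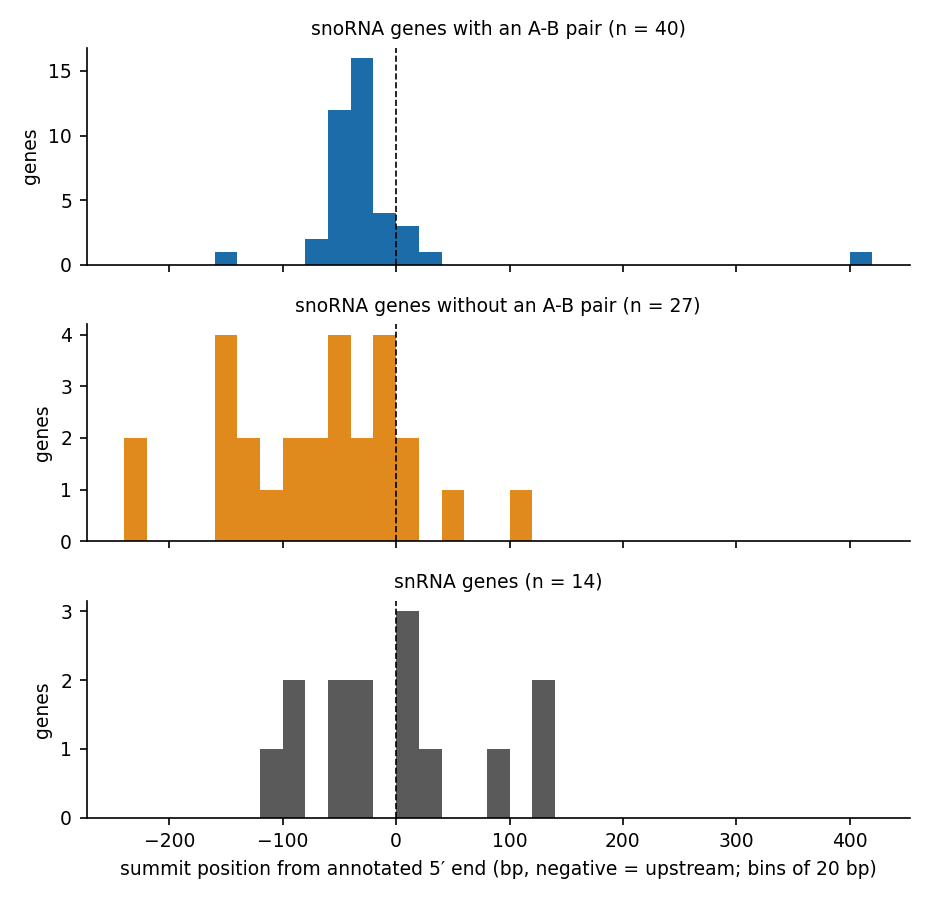
Number of genes by position of the strongest reproducible summit from the annotated 5′ end, in bins of 20 bp, for snoRNA genes with the A-B pair (n = 40), without it (n = 27) and snRNA genes (n = 14). The first group is concentrated upstream around −38 bp, the second is wider with a median of −57 bp, and the third lies on both sides of 0.

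Gene identifiers, which run in the order in which genes entered the database, split the snoRNA genes, and occupancy moved with that split. Among 139 genes with early identifiers, starting WBGene000, 50 were occupied (36%, 28.0 to 44.5), and among 207 with late ones, 17 (8.21%, 4.86 to 12.8). The pair was found in 47 of the early and 13 of the late genes, of which 37 and 3 were occupied. Without the pair, 13 of 92 early (14.1%, 7.74 to 23.0) and 14 of 194 late genes (7.22%, 4 to 11.8) were occupied. Occupied late genes had a median signal of 151.3, near the 152.4 of all reproducible peaks, against 316.0 for early genes. Their summits lay at a median of −104 against −37.5, and 10 of 17 were more than 90 bp upstream against 1 of 50. Whether the late entries are independent transcripts was not tested.

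Box C/D was called where TGATGA lay near the start of the gene and CTGA near its end. Box H/ACA was called on ACA near the end alone, where box C/D was not called. Such short words can occur by chance, and RNA structure was not examined. By these marks, 14 snoRNA genes were called box C/D, 82 box H/ACA and 250 were left unassigned. Occupied were 5 of 14 (35.7%, 12.8 to 64.9), 21 of 82 (25.6%, 16.6 to 36.4) and 41 of 250 (16.4%, 12.0 to 21.6), with overlapping intervals. Across chromosomes I to V the occupied counts were 15 of 74, 17 of 71, 8 of 54, 11 of 59 and 14 of 55, and on the X chromosome 2 of 33. The matching share over all genes of each chromosome was not computed, so these counts set no chromosome apart.

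Both replicates gave similar orders of the occupied snoRNA genes. Of 67 genes, 55 had a summit among the 1945 strongest of each replicate list, 4 in replicate 6 alone, 7 in replicate 7 alone and 1 in neither. Over 66 genes the signals in the replicates had a Spearman correlation of 0.928 and a Pearson correlation of log2 signal of 0.891. This describes genes within these libraries, and the genes were taken on the pooled signal, which both libraries enter. The distance between the replicate summits had a median of 17 bp. With a pair, 34 of 60 genes lay among the strongest 1945 of replicate 6 (56.7%) and 39 of 60 in replicate 7 (65.0%), while without a pair these shares were 10.1% and 10.5%. The difference was seen in each library alone. However, the pair was chosen after values from both libraries were seen, so neither library is an independent check.

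At some genes the libraries differed. W01C9.6 had no peak summit within 250 bp in replicate 6, and stood at 139.8 in replicate 7 and 311.2 in the reproducible list. Whether a replicate 6 peak with a more distant summit covers this gene was not examined. Y71D11A.7 ranked 3683 in replicate 6 and 458 in replicate 7, and H04D03.5 ranked 3873 and 950. In the opposite direction, C18D1.21 ranked 1224 and 14277, and K02F3.15 ranked 1011 and 4337. All 4 of these last genes had reproducible signals between 106.3 and 133.3, in the lower part of the range.

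**Figure D4:**
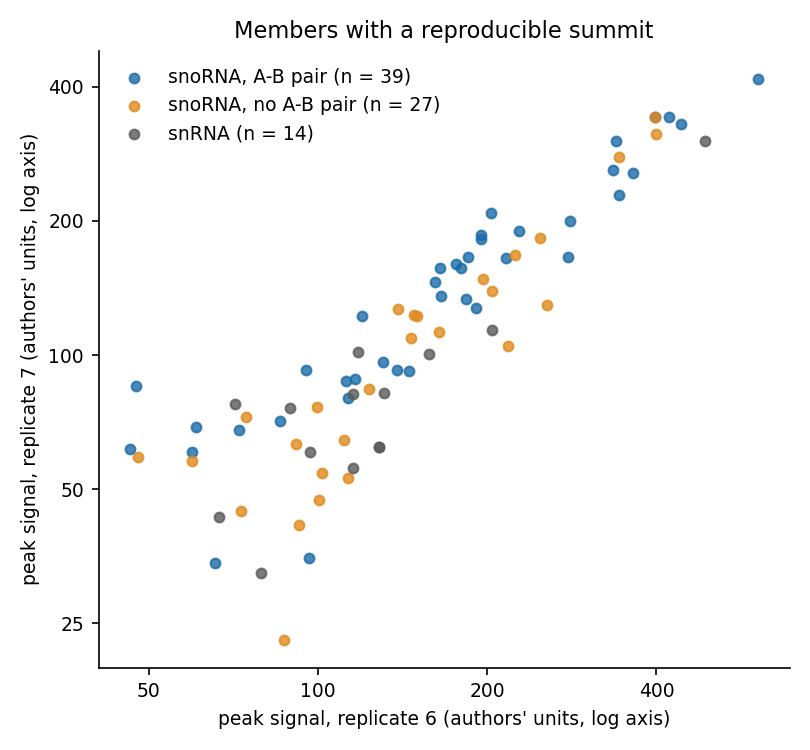
Signal of the strongest peak within 250 bp in replicate 6 (x axis) and replicate 7 (y axis), both in the authors' units on log axes, for occupied snoRNA genes with the pair (blue), without it (orange) and snRNA genes (grey). Signals rise together up to W03C9.9 at 606.9 and 416.9. W01C9.6, without a replicate 6 summit within 250 bp, is not drawn.

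Among snRNA types, SL2 genes had the highest share with a reproducible summit, 5 of 18 (27.8%, 9.69 to 53.5), and 14 of the 18 had some peak in the pooled list. U6 gave 3 of 22, U1 2 of 12, and U2 1 of 19, while U4 and U5 gave 1 of 5 and 1 of 11. SL1 genes gave 0 of 14 and the SmY genes of biotype snRNA 0 of 10, which allows up to 23.2% and 30.8%. None of these 24 genes had a peak summit within 250 bp in any list. The annotation lists smy-2 and smy-3 as snoRNA, so they are counted there. smy-2 had no peak summit within 250 bp in any list. smy-3 had no reproducible summit and a weak peak of 35.6 in the pooled list and 24.4 in replicate 6. The intervals of all types overlap, so no order of types can be read from these counts. The remaining occupied entry was mir-1831, which the annotation lists as snRNA and which lies inside sup-39, so that 14 genes share 13 summits.

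Sequence uniqueness differed between the SL1 genes and these 10 SmY genes. The share of 36-base words found once in the genome, over the gene and 250 bp on either side, had a median of 0% at SL1 genes (range 0 to 72.4%) and of 99.9% at the SmY genes (94.3 to 100%). No read length was given in the sources, and the part of uniqueness in the missing peaks was not tested. Over all snRNA genes the median was 84.5%, 50 genes lay under 80% and 1 of those was occupied, against 13 of the other 79. For snoRNA genes the median was 100%, and 26 lay under 80%, of which 1 was occupied. Of the snRNA genes, 44 share their whole sequence with another one. A read that lies wholly inside such a gene cannot tell its copies apart, and how reads reaching the flanks were mapped was not tested.

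**Figure D5:**
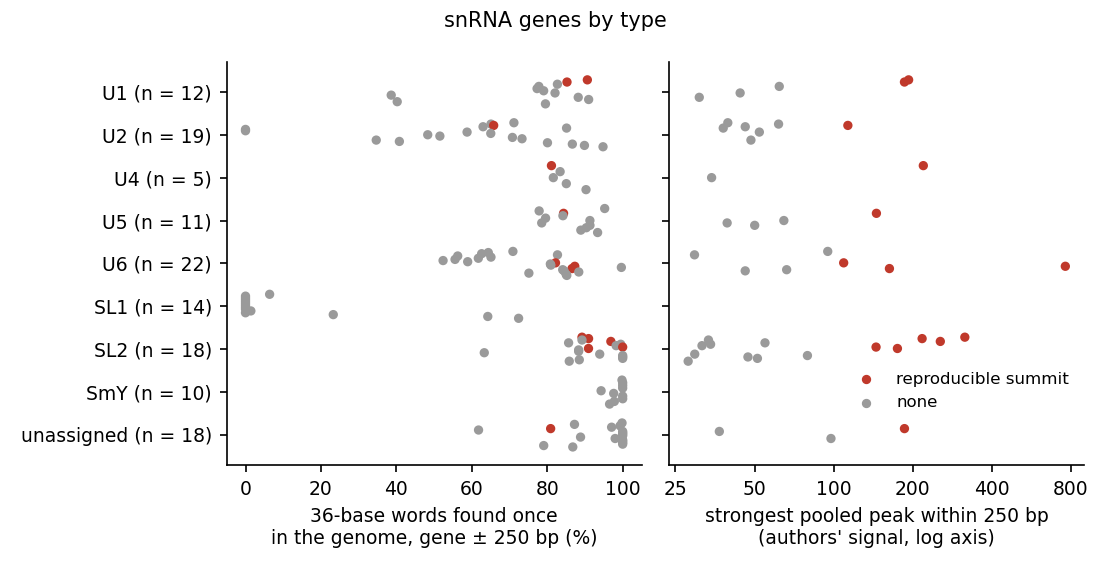
Each point is 1 snRNA gene, by type. The left panel gives the percent of 36-base words found once in the genome over the gene and its flanks, and the right panel the strongest pooled peak within 250 bp (authors' signal, log axis) for genes that have one; red points have a reproducible summit. SL1 genes run from 0 to 72.4% and SmY genes from 94.3 to 100% on the left, and neither type has a point on the right.

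The strongest snRNA gene was the U6 copy R07E5.16 with identifier WBGene00014543 (chrIII:10989679-10989780), in an intron of the dynein gene dhc-4. Its signal was 487.8 in replicate 6, 302.1 in replicate 7 and 761.3 in the reproducible list. The summit position differed between lists, 3 bases after the 5′ end in replicate 6, 111 in replicate 7 and 97 in the reproducible list, and 2 reproducible summits lay within 250 bp of it. A second copy under the same name, WBGene00014484 in mpc-1, gave 79.1, 32.5 and 109.1. The third U6 gene, F54D8.7 with identifier WBGene00195000, gave 89.4, 76.1 and 163.0. The leading U6 copy stood above both others in each of the 3 lists. The R07E5.16 copies are among 14 genes with an identical sequence. How reads were assigned among these copies was not tested, so the order describes the deposited values only.

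The 5 occupied SL2 genes were sls-2.1, sls-2.4, sls-2.2, sls-2.9 and sls-2.8. sls-2.1 led with 204.1 in replicate 6, 113.6 in replicate 7 and 315.6 in the reproducible list, and the others stood at 254.5, 217.0, 174.8 and 144.9 in that list. Summit positions were −28, 130, 120, −104 and −54, on both sides of the gene start. The summit at sls-2.9 also lay within 250 bp of a tRNA gene, and that at sls-2.8 in the promoter windows of Y75B8A.23 and tim-1.

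The U4 gene T11F9.15 gave 118.0 in replicate 6, 101.7 in replicate 7 and 219.3 in the reproducible list, with the summit at −47, in the promoter window of snr-4, which encodes a core protein of the spliceosomal particles. The U1 genes sup-6 and sup-39, known for mutant forms that change the choice of splice sites, gave 115.4, 81.7 and 192.8, and 128.3, 62.3 and 185.9. The U5 gene F38E11.11 stood at 145.4 and the U2 gene C47F8.9, with identifier WBGene00014311, at 113.2 in the reproducible list. All of these lay between the lowest reproducible signal of 105.3 and the 761.3 of the leading U6 copy.

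Over the 14 occupied snRNA genes the median summit position was −12.5 bp (quartiles −52.25 and 22.25, range −104 to 130), upstream at 7 genes and at or after the first base at 7. Its sign changed with the settings: it was 3 with summits within 100 bp and 3.5 and 9 with the single replicates. No side of the gene can therefore be given for snRNA genes. Replicate summits lay a median of 39.5 bp apart, against 17 bp at snoRNA genes, and 12 of 14 genes were among the strongest 1945 of both lists. By position, 9 of 62 independent (14.5%) and 5 of 35 intronic snRNA genes (14.3%) were occupied, whereas antisense and exon-overlapping genes gave 0 of 20 and 0 of 12, which allows up to 16.8% and 26.5%.

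The word TGTCNG was present from 80 to 30 bases before 78 of the 129 snRNA genes (60.5%), 14.7% of snoRNA genes and 2.69% of protein-coding 5′ ends. It was found at 19 of 19 U2, 16 of 18 SL2, 4 of 5 U4, 10 of 14 SL1, 8 of 12 U1, 6 of 11 U5 and 12 of 22 U6 genes, and at 0 of the 10 SmY genes of biotype snRNA, while smy-2 and smy-3 both carry it. Occupied were 12 of the 78 snRNA genes with the word (15.4%, 8.21 to 25.3) and 2 of the 51 without it (3.92%, 0.478 to 13.5), and the intervals overlap. U2 genes, which all carry it, had 1 occupied gene of 19.

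Further words were counted on both strands in the 50 bases on either side of each summit. TGGCNNAGT without a mismatch was in 12 of 66 snoRNA summit windows (18.2%) against 2.26% of all 1945 reproducible windows, and GGTTCGA, which shares GTTCGA with the B word, in 10 (15.2%) against 4.42%. TTAGGC, the telomere-type repeat, was in 2 (3.03%) against 8.69%, and GAGAGA in 6 (9.09%) against 25.1%. CACGTG was in 2 against 2.01% of all windows, and CTCCGCC in 2 against 3.44%. In the 13 snRNA windows, TGTCGG was in 3 (23.1%, against 71 of the 1945 windows), CTCCGCC in 1, and none of the other words was found. A match describes the letters in the window and does not show which protein bound there.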

How the data were processed

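Each library is a ChIP-seq library of anti-GFP immunoprecipitated chromatin. Peaks in 4 lists were analysed: 1 for each of the 2 replicates, 1 called on both pooled and the reproducible set, which derives from the others, per the deposited listing. A control was also part of the peak calling, and its library was not analysed here. Per the labels, coordinates are on ce11. The depth, aligner and peak caller were not given in the sources used here. The precision that depth gives is therefore unknown. The signal of a peak is the value deposited by the authors, with no stated scaling to depth, so signals were compared within a list or as ranks. The deposited −log10 q-value does not order the reproducible peaks and was not used, and the p-value column is empty. The deposited summit offset in bp gave each summit's position.

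Genes came from Ensembl release 115 and sequence from the RefSeq WBcel235 genome, and all 24 pairs of list and nuclear chromosome ended inside the chromosome. Per gene the strongest summit within 250 bp of the body was kept. Shares carry exact Clopper-Pearson intervals at 95%. The snRNA type and box class were assigned by short signature words where the annotation gave none. Uniqueness was the share of 36-base words found once. Named genes are the 15 snoRNA and 12 snRNA genes of highest signal, their hosts, the 3 hosts with most snoRNA genes, the 3 strongest genes outside the set per class, and 2 genes each way whose ranks differ most between replicates. Other names, and the A-B pair with its spacing and mismatches, were chosen after values were seen. The members and lists were chosen with earlier results of these data known. With 1 group and 2 replicates no test was made. Alternatives were the window, the reference point, overlap, stricter and laxer thresholds, single replicates, shared summits and unique flanks. Scripts ran in Python 3.11.15 with pandas 2.3.3, numpy 2.4.6 and scipy 1.17.1, figures were drawn with matplotlib 3.10.9, and the procedures were tested on simulated data.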

Additional observations from a re-analysis of the deposited data

How the results depend on the processing

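Of the values recomputed under other settings, 79 stayed near the main one, which means within 1.5 times for counts and shares and within 1 SD of the replicates for positions, 12 moved further and 7 changed sign. Counts of occupied genes were 52 to 85 for snoRNA genes, 10 to 17 for snRNA genes, 16 to 29 for intronic and 22 to 38 for independent snoRNA genes. The snoRNA median position of −39 became −37.5 with summits within 100 bp, −41 within 500 bp and −45 to −43 with single replicates. The snRNA median of −12.5 became 3 within 100 bp, within 500 bp, with the strongest pooled peaks in a number 2 times larger and with unique flanks, 17 with the upper 50% of peaks, 3.5 to 9 with single replicates, and −28 with each summit given to its nearest member. In the results on the A-B pair, added after seeing the data, the share of 66.7% of genes with an A-B pair became 34.9% with 2 mismatches allowed in each word, and stayed at 56.7 to 65.0% with single replicates. The share of 9.44% without the pair became 15% with the larger pooled set. The share of 1.79% of intronic genes without the pair became 6.25% within 500 bp, 7.14% with the larger pooled set, 5.60% with 1 mismatch allowed in each word and 3.57 to 5.36% with single replicates. Except for the larger pooled set and the mismatches, which change the peaks or words counted by construction, the cause was not tested. No paired analysis was possible because there is 1 group. The depth of the libraries is unknown, and mapping to repeated flanks, as at SL1 genes, was not tested.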
